A study of Schizosaccharomyces pombe with 4 samples.

Results

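XUTs (Xrn1-sensitive unstable transcripts) are long noncoding RNAs that accumulate in yeast cells lacking the cytoplasmic 5′-3′ exoribonuclease, which is Exo2 in fission yeast. The XUTs described here are antisense to a protein-coding gene and cover its annotated start. A XUT was taken if its opposite-strand overlap with a gene reached 50 nt and, once paired with the gene of longest overlap, spanned the 5′ end of that gene. Of 1638 XUTs, 1205 were antisense by this overlap and 344 covered the gene start, each over a different gene. Of these, 300 ended within the gene (start only) and 44 spanned it from end to end (whole gene). The other antisense XUTs covered only the gene end (107) or lay inside the gene (754).

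Total RNA was sequenced from 2 libraries of WT cells (strain YAM2394, mating type *h+*, with *leu1-32*, *ura4-D18* and *ade6-M210*) and 2 of *exo2*Δ cells (strain YAM2397, the same markers with *exo2*Δ::*kanMX4*). They are described as biological replicates, from mid-log cultures in YES, a rich medium, at 32°C. Each genotype is a single strain. Values are densities, that is reads per nt of the feature after scaling of each library on its sn(o)RNA reads. The paper states that both strains were checked by genomic PCR and by northern blot. In the deposited densities, the *exo2* gene did not show the deletion: WT libraries had 0.488 and 0.458 tag/nt, and the libraries labelled *exo2*Δ 0.663 and 0.636 tag/nt. Directions below therefore refer to the labels, and "mutant-labelled" stands for the libraries labelled *exo2*Δ. *ura4*, removed by the D18 allele in both strains, had 2 and 3 reads in WT against 7 and 14 in the mutant-labelled libraries. Reads on features ranged from 46964618 to 51019820 per library, and reads on XUTs from 91865 to 96346 in WT and from 259019 to 274213 in the mutant-labelled libraries. Reads on features typed as snoRNA genes numbered 2595901 and 2439784 in WT and 1774238 and 1779244 in the mutant-labelled libraries. The authors scaled on sn(o)RNA, and these counts may not hold the whole set that they used. The median mRNA was itself higher in density there by 1.08 on the log2 scale. Sense genes are therefore given on the deposited scale and after setting the median mRNA ratio to 1 (mRNA scaling). This scaling lowers log2 ratios by about 1.08, and by less for genes with few reads, such as SPAC869.09 (6.07 to 5.28).

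Capped transcripts are degraded from the 5′ end after decapping, and an antisense RNA without a long reading frame is visible mainly when this decay is lost. An antisense transcript that runs through the start of a gene crosses its transcription start site and, with enough length, its promoter. In yeasts, such transcription has been linked to the control of inducible and meiotic genes.

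The XUTs reached upstream of the annotated gene start by a median of 148.5 nt (quartiles 64.5 and 322) and overlapped the gene by a median of 562.5 nt. The start codon lay under the XUT in 303 of 344 pairs. The 100 nt in front of the gene start are shown for 8 pairs on which the results below turn, since these are promoter sequences that the antisense transcripts crossed. They are RefSeq sequence of build ASM294v3, read on the strand of the gene and ending just before the more upstream of the RefSeq start and the start in the deposited table. Capitals mark matches to TATAAA (the TATA box, gene strand), GTAAACA (the core bound by forkhead factors such as the meiotic Mei4, both strands), TGACGT (the core bound by Atf/CREB factors, both strands, with both overlapping at *atf21*) and ACGCGT (the MluI box of G1/S genes).
atf21 (chrII:1722131-1722230, plus strand): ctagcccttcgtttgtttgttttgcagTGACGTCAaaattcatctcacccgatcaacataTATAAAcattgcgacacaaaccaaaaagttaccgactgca
meu14 (chrII:4066194-4066293, plus strand): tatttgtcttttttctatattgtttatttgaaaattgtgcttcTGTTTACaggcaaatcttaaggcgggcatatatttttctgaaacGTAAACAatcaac
mug27 (chrIII:1679437-1679536, minus strand): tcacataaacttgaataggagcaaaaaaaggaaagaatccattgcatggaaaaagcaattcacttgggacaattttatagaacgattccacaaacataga
dmc1 (chrI:3382164-3382263, plus strand): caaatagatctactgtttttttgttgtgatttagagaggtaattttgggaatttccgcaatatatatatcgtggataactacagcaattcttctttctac
fbp1 (chrII:199475-199574, minus strand): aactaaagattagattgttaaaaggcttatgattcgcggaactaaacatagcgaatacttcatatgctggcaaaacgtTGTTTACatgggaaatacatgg
nmt1 (chrIII:1838313-1838412, plus strand): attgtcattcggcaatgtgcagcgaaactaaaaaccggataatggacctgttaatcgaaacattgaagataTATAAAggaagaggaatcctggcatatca
gal1 (chrII:4488198-4488297, plus strand): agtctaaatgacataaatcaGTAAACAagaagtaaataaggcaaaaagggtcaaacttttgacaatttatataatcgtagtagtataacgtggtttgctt
rev3 (chrI:3129607-3129706, plus strand): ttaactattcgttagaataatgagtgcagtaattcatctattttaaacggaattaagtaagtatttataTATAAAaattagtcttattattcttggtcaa
The XUT covered all 100 nt shown for 6 of these genes, 72 nt for *dmc1* and 85 nt for *rev3*.

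In windows of 250 nt before the start, which could be read for 340 of the 344 paired genes and for 5023 of all 5129 genes, TATAAA was found in 34.1% of the paired genes and in 27.7% of all genes. GTAAACA was found in 18.5% and 14.6%, TGACGT in 6.47% and 4.62%, and ACGCGT in 2.35% and 2.25%. For the whole-gene pairs, GTAAACA was present in 15 of 44 windows (34.1%), TATAAA in 17 (38.6%), TGACGT in 4 (9.09%) and ACGCGT in 1 (2.27%). For the start-only pairs, with 296 windows, the shares were 16.2% for GTAAACA, 33.4% for TATAAA, 6.08% for TGACGT and 2.36% for ACGCGT. Among paired genes with a match, the match itself lay under the XUT in 60 of 116 for TATAAA and in 40 of 63 for GTAAACA. These are letter matches in fixed windows, and they were not tested.

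**Figure D1:**
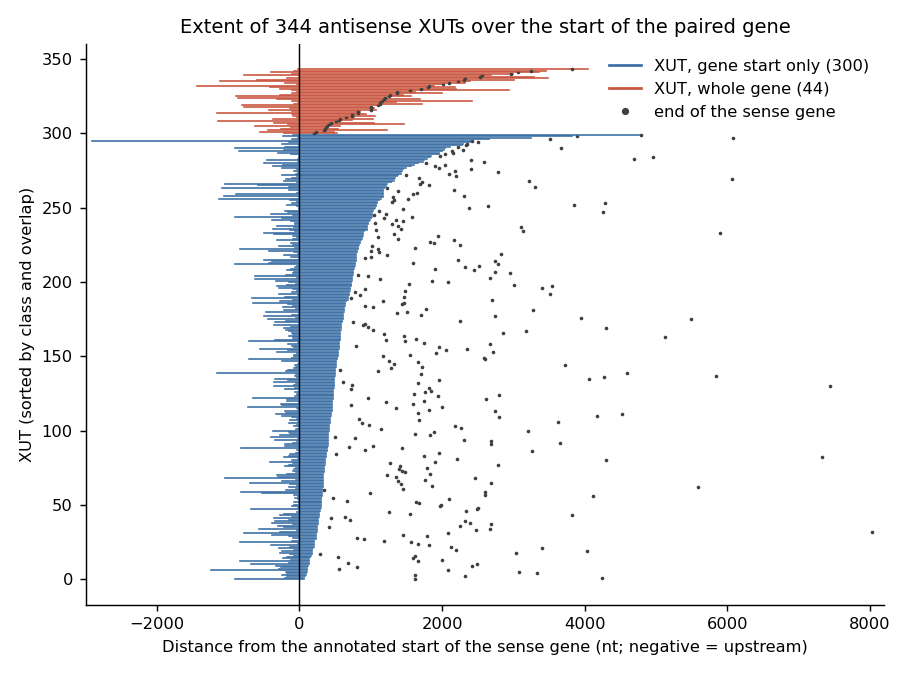
Extent of the 344 XUTs (horizontal lines) relative to the start of the paired gene, in nt, with negative values upstream; dots mark the gene end. The 300 start-only XUTs (blue) ended upstream of the gene start at one side and within the gene at the other, and the 44 whole-gene XUTs (red) passed both ends.

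The XUTs were defined by the authors on these same 4 libraries by a ratio above 2, so their rise describes how they were chosen and was not tested. Their median density was 0.0286 and 0.0310 tag/nt in WT against 0.116 and 0.115 tag/nt in the mutant-labelled libraries. In every one of the 344 pairs, both mutant-labelled XUT values exceeded both WT values. XUT log2 ratios had a median of 2.01 and quartiles of 1.55 and 2.77, with 173 above 4-fold and 32 above 16-fold. Most were detectable in WT: 1 XUT had no read in WT replicate 1 and 4 had none in WT replicate 2. In bulk RNA, fewer cells expressing a transcript and less of it per cell cannot be told apart.

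Whole-gene XUTs were more abundant, and their genes less abundant, than those of start-only pairs. Median XUT density was 0.0640 and 0.0733 tag/nt in WT against 0.269 and 0.256 tag/nt in the mutant-labelled libraries for whole-gene pairs, and 0.0266 and 0.0282 tag/nt, then 0.108 and 0.107 tag/nt, for start-only pairs. For the sense genes in WT, the medians were 0.0379 and 0.0415 tag/nt in whole-gene pairs and 0.281 and 0.304 tag/nt in start-only pairs. Genes with no antisense XUT had medians of 0.498 and 0.499 tag/nt. Genes covered only at the end had 0.241 and 0.252 tag/nt, and genes with a XUT inside 0.245 and 0.265 tag/nt. A level below that of genes without antisense XUT was thus not particular to genes with a covered start. The antisense RNA was more abundant per nt than the sense mRNA in WT in 25 of 44 whole-gene pairs, in each replicate, and in 27 and 26 of the 300 start-only pairs. In the libraries labelled *exo2*Δ these numbers were 28 and 29 of 44, and 44 and 45 of 300. The difference between classes is descriptive, since gene length (median 1147.5 nt for whole-gene and 1818.5 nt for start-only pairs) and XUT length also set the class.

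**Figure D2:**
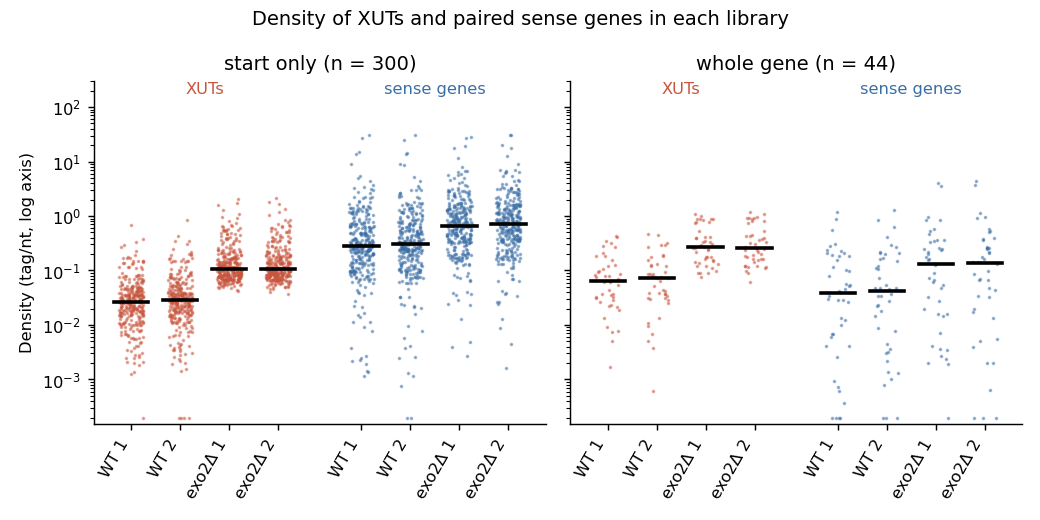
Density in tag/nt on a log axis of XUTs (red) and paired sense genes (blue) in each library, for start-only and whole-gene pairs; each dot is 1 pair, black bars are medians, and values under 0.0002 are drawn at 0.0002. XUT medians were higher in both mutant-labelled libraries. Among the sense genes, those of whole-gene pairs had the lower medians in each library.

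XUT 5′ ends were compared with starts of other genes transcribed in the opposite direction, from 100 nt inside to 500 nt in front. Of the whole-gene XUTs, 24 of 44 began in such a window, as did 61 of the 107 gene-end XUTs. The counts were 24 of 300 for start-only XUTs and 91 of 754 for XUTs inside a gene. Whole-gene and gene-end XUTs begin at or beyond the sense gene end by definition, so the class rule bears on these counts. The XUT over *atf21* began next to *ceg1*, the XUT over *dmc1* next to *rad24*, the XUT over *fbp1* next to *tfg2*, and the XUT over *mcm6* next to *gea1*. An annotated lncRNA overlapped the XUT on its own strand in 36 of 44 whole-gene pairs and in 143 of 300 start-only pairs. The counts were 77 of 107 for gene-end XUTs and 229 of 754 for XUTs inside a gene. Of the whole-gene sense genes, 9 of 44 (20.5%) carried a *mug*, *meu*, *mcp* or *spo* name, given to genes upregulated or required in meiosis and sporulation, against 7 of 300 start-only genes and 2.50% of all genes.

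At 3 meiotic genes, *spo4* and *dmc1* spanned end to end and *mug27* at its start, there were almost no sense reads under an abundant XUT. *spo4*, a kinase of the DDK family used in meiosis, had 2 and 2 sense reads in WT against 3 and 1 in the mutant-labelled libraries. Its XUT, XUT0400, had 1310 and 1299 reads in WT, then 2227 and 2461. *mug27*, a meiotic protein kinase whose promoter is shown above, had 4 and 3 sense reads in WT against 8 and 9 in the mutant-labelled libraries, under XUT0896 with 682, 685, 2747 and 2988 reads. *dmc1*, the meiotic recombinase, gave 9, 4, 4 and 2 sense reads against 753, 631, 1172 and 1298 of XUT0660. These 3 genes were close to silent in all 4 libraries, and the test called neither *mug27* (log2 ratio 1.59 ± 1.06, adjusted p = 0.19) nor *dmc1* (log2 ratio -0.65 ± 0.91, adjusted p = 0.52), while *spo4* was below the read minimum. Without that minimum, which changed the fit, *mug27* passed at the same ratio. At *spo4* the sense density was 0.124% of the XUT density in the mutant-labelled libraries, which is the most that reads placed on the wrong strand could amount to there. In the other direction, XUT0225 over *rpl3801*, a ribosomal protein gene, had 0.0244% of the gene's density in WT.

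Other pairs with a high antisense to sense ratio held a faintly expressed gene. *atf21*, a transcription factor of the Atf/CREB family, is in the meiosis and sporulation list used below. It had 11, 9, 7 and 10 sense reads against 295, 287, 824 and 797 of XUT0274. SPBC28E12.02, which encodes a protein of the BICC1 family of RNA-binding proteins, had 1, 2, 4 and 4 sense reads against 1178, 1160, 2375 and 2372 of XUT0283. Both genes stayed within counting error across the 4 libraries, the summed ratio for SPBC28E12.02 being 3.54 (95% exact interval 0.850 to 20.7). *pal2*, annotated as a meiosis-specific factor of clathrin-mediated endocytosis, had 3 and 1 reads in WT against 13 and 9 in the mutant-labelled libraries. *arp10*, an actin-like protein, had 1 and 4, then 15 and 14. Both passed the test (adjusted p = 0.018 and 0.012), with summed ratios of 7.31 (2.48 to 29.2) and 7.71 (2.95 to 25.5), but neither did without exo2 replicate 1 (log2 ratios 2.61 and 3.04) or after mRNA scaling (log2 ratios 1.88 and 2.09, limma adjusted p = 0.11 and 0.083). The intervals cover counting error only.

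Not every meiotic gene stayed silent. *meu14*, which acts in forespore membrane formation, had 0.0123 and 0.0178 tag/nt in WT against 0.165 and 0.142 tag/nt in the mutant-labelled libraries, under XUT0419 at 0.183 and 0.181, then 0.745 and 0.819 tag/nt. Sense and antisense were both higher in the mutant-labelled libraries without overlap, and the gene rose by 3.36 ± 0.25 on the log2 scale (adjusted p = 1.8e-05). *meu7*, an alpha-amylase, was level on the deposited scale at 0.0305, 0.0341, 0.0333 and 0.0325 tag/nt, while XUT1255 over the whole gene went from 0.185 and 0.178 to 0.834 and 0.878 tag/nt. Of the 16 paired genes with *mug*, *meu*, *mcp* or *spo* names, 14 were tested and 10 rose on the deposited scale, where 54.8% of all mRNAs did. After mRNA scaling 4 were higher (*meu14*, *mug98*, *mug30* and *mug100*) and *meu7* was lower (log2 ratio -1.04). Of all mRNAs, 6.58% were then higher and 7.99% lower.

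**Figure D3:**
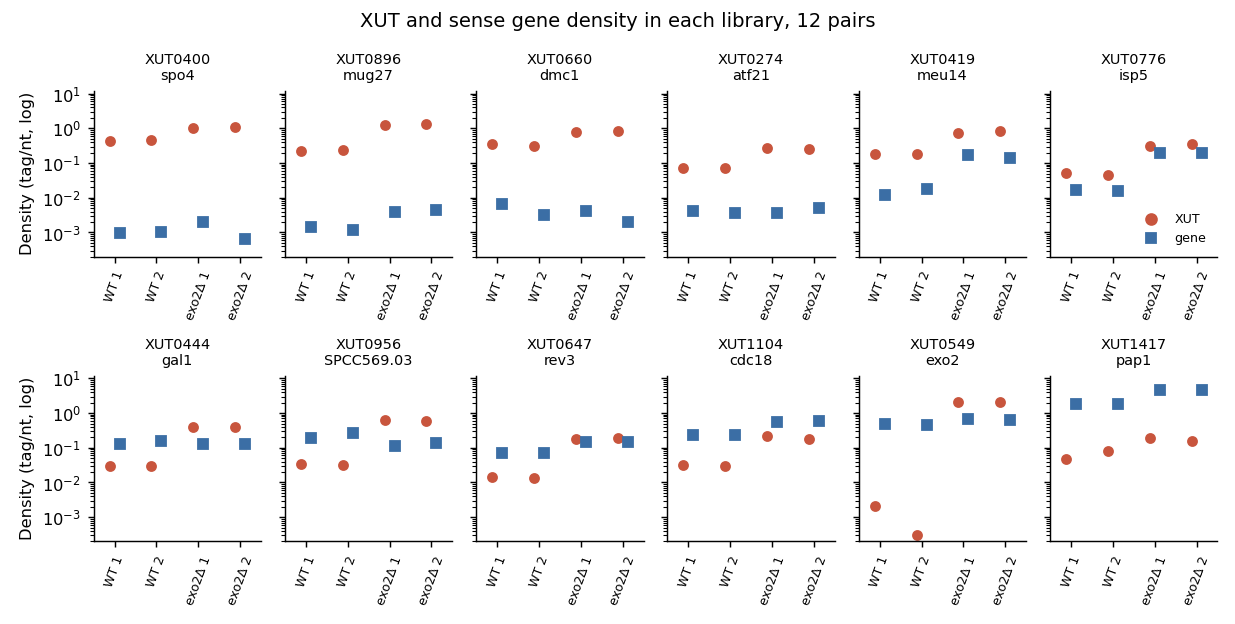
Density in tag/nt (log axis) of the XUT (red circles) and the sense gene (blue squares) in each of the 4 libraries for 12 pairs; a value of 0 is drawn at 0.0003. At spo4, mug27, dmc1 and atf21 the sense gene stayed far below the XUT, at meu14 and isp5 both were higher in the mutant-labelled libraries, and at gal1 and SPCC569.03 only the XUT was.

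The sense genes were not used to define XUTs, and the question was whether genes with a covered start changed when antisense RNA accumulated. Of the 344 paired genes, 338 had enough reads to be tested. On the deposited scale 198 rose by more than 2-fold (limma, Benjamini-Hochberg adjusted p under 0.05), which is 58.6% of those tested against 54.8% of all mRNAs. None fell to a ratio under 0.5 (0.276% of all mRNAs did), and at an unadjusted p under 0.05 the number was also 0. Of the 338 genes, the mutant-labelled values both exceeded the WT values for 315, both lay under them for 13 and overlapped them for 10, where 91.1% and 5.43% of all mRNAs tested were not overlapping in these directions. The median log2 ratio was 1.14 (quartiles 0.71 and 1.59), and 1.14 in each same-numbered pair of libraries, beside 1.08 for all mRNAs. The log2 ratio was below that of the XUT in 281 of the 338 pairs.

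After mRNA scaling, 39 of the 338 genes were higher (11.5%, against 6.58% of all mRNAs) and 18 were lower (5.33%, against 7.99%). By class, 8 of 39 tested whole-gene pairs (20.5%) and 31 of 299 start-only pairs (10.4%) were then higher. The counts lower were 3 and 15. Genes covered only at the end had a share close to that of the 338, with 12 of 107 higher (11.2%) and 7 lower. Genes with a XUT inside had 41 of 639 higher (6.42%) and 27 lower. On the deposited scale, 68.2% of the genes covered only at the end and 57.7% of those with a XUT inside were higher. The deposited scale gave a median log2 ratio of 1.53 for whole-gene pairs, with 1.54 and 1.27 in the same-numbered pairs of libraries, and of 1.13 for start-only pairs, 1.27 for genes covered only at the end, 1.13 for genes with a XUT inside and 1.07 for genes without antisense XUT. The 5 whole-gene pairs that were not tested all had few sense reads. No test of the difference between classes was made.

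**Figure D4:**
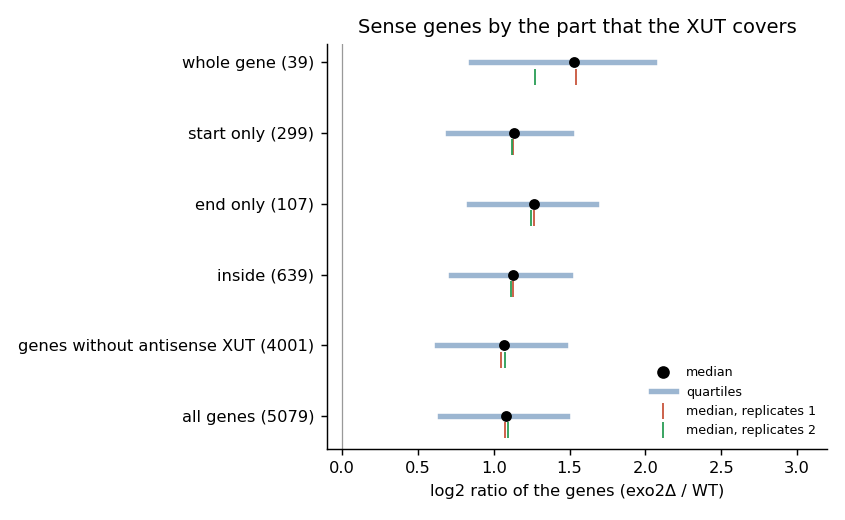
Median (dot) and quartiles (bar) of the log2 ratio of genes between the mutant-labelled libraries and WT, by the part of the gene that the XUT covers, with the median of each same-numbered pair of libraries (ticks) and the number of genes tested in brackets. The medians lay between 1.07 and 1.53.

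The 8 paired genes with the largest rise without overlap were mostly faint in WT. SPAC869.09, of the Con-6 family, had 1 and 0 reads in WT against 21 and 14 in the mutant-labelled libraries, a ratio of 46.5 with an exact 95% interval of 7.82 to 1889 for counting error (adjusted p = 0.0024). SPBPB21E7.02c, of the phosphoglycerate mutase family, had 2 and 1 reads, then 37 and 56 (41.2, interval 13.7 to 203, adjusted p = 4.4e-05). *pcm2*, a protein-L-isoaspartate O-methyltransferase, had 6 and 2 reads, then 76 and 99 (log2 ratio 4.95 ± 0.55, adjusted p = 0.00012). The XUTs over these genes had few WT reads too. XUT1631 over SPAC869.09 had 3 and 2 reads, then 105 and 133, XUT0965 over SPBPB21E7.02c 7 and 6, then 120 and 128, and XUT1632 over *pcm2* 3 and 3, then 41 and 53.

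*grt1*, a transcription factor, had 35 and 33 sense reads in WT, then 641 and 566 (log2 ratio 4.53 ± 0.23, adjusted p = 4.5e-06), under XUT0962 at 7 and 4, then 183 and 201 reads. *isp5*, an amino acid transporter, had 63 and 57 sense reads in WT against 555 and 549 in the mutant-labelled libraries, a log2 ratio of 3.60 ± 0.19 (adjusted p = 4.7e-06). Its XUT, XUT0776, went from 0.0504 and 0.0442 to 0.306 and 0.344 tag/nt. *cmt2*, a catechol O-methyltransferase, rose from 0.0983 and 0.126 to 1.26 and 1.41 tag/nt (log2 ratio 3.58 ± 0.14). *fub2*, of the PI31 proteasome regulator family, rose by 3.87 ± 0.48 and SPBPB2B2.08 by 4.83 ± 0.43 on the log2 scale. All 8 genes stayed higher after mRNA scaling, and the XUTs over 7 of them, all but *isp5*, had a log2 ratio above 4.

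Of these 8 genes, 7 lay within 100 kb of a chromosome end, from 47.4 to 85.6 kb, and *isp5* at 110 kb. That distance was set after their positions were seen. Among all paired genes within 100 kb of an end, 16 of 19 tested were higher (median log2 ratio 2.08), beside 133 of 175 (median 1.80) for all genes in these regions. Paired genes elsewhere had a median of 1.12, and all genes elsewhere 1.07. Subtelomeric genes can share sequence with copies elsewhere, and since only uniquely mapped reads were kept, their levels are uncertain.

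No paired gene passed the threshold downward on the deposited scale, but 7 of 338 (2.07%) were lower at an adjusted p under 0.05 without the 2-fold limit, where 4.31% of all mRNAs were. In the other direction 301 (89.1%) were higher, beside 88.1% of all mRNAs. The 7 genes were chosen after their values were seen. SPCC569.03, of unknown function, had 0.186 and 0.275 tag/nt in WT against 0.111 and 0.133 tag/nt in the mutant-labelled libraries (log2 ratio -0.90 ± 0.21, adjusted p = 0.0047), while XUT0956 went from 0.0341 and 0.0324 to 0.629 and 0.608 tag/nt. The sense RNA was thus lower in both libraries and exceeded by the XUT there. *asn2*, asparagine synthase, had 0.813 and 0.864, then 0.533 and 0.557 tag/nt (log2 ratio -0.62 ± 0.08, adjusted p = 0.00027). The others were *psu2*, a beta-glucosidase (-0.55 ± 0.19), *mpn1*, an RNA exonuclease (-0.63 ± 0.19), *osh2*, a sterol transfer protein (-0.45 ± 0.12), SPBC1604.04, a thiamine pyrophosphate transporter (-0.29 ± 0.10), and *obr1*, a quinone dehydrogenase (-0.26 ± 0.07). All 7 were among the 18 lower genes after mRNA scaling.

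*gal1*, the galactokinase, was level on the deposited scale. It had 0.125 and 0.158 tag/nt in WT against 0.131 and 0.131 tag/nt in the mutant-labelled libraries, within the WT range (log2 ratio -0.10 ± 0.16, adjusted p = 0.56). XUT0444, which covered 1494 of the 1950 nt of the gene and 242 nt upstream, went from 0.0302 and 0.0296 to 0.392 and 0.386 tag/nt. Antisense thus exceeded sense only in the mutant-labelled libraries, and after mRNA scaling *gal1* was lower (log2 ratio -1.18). Of the 3 genes of the galactose cluster, the other 2 were higher on the deposited scale, where 54.8% of all mRNAs were. SPBC8E4.05c, a fumarate lyase, was level too, with 0.0389 and 0.0331, then 0.0282 and 0.0390 tag/nt. Its antisense was near the sense level in WT already, with XUT0433 at 0.0394 and 0.0354, then 0.293 and 0.331 tag/nt, and the gene was lower only after mRNA scaling (log2 ratio -1.18).

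**Figure D5:**
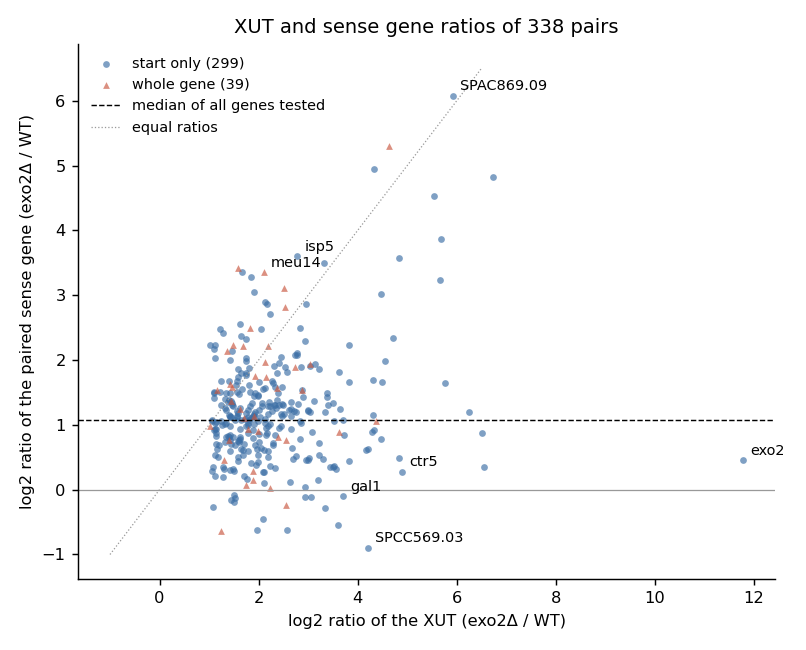
The log2 ratio (mutant-labelled libraries over WT) of the XUT against that of the paired sense gene for the 338 tested pairs, with start-only pairs as blue circles and whole-gene pairs as red triangles; the dashed line is the median of all genes tested and the dotted line marks equal ratios. XUT0549 over exo2 stands at the far right, and most points lie below the dotted line.

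XUT and sense ratios were weakly related across the 338 pairs (Pearson's r = 0.205, Spearman's rho = 0.0876). The sense ratio was more closely related to the WT density of the gene (r = -0.551, rho = -0.445), with faint genes having higher ratios. The share of the gene that the XUT covered had little relation to the sense ratio (r = 0.109, rho = 0.116). These are descriptions across pairs that share the 4 libraries and, for low genes, the same sampling error in WT.

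Among DNA replication and repair genes, 8 had a XUT over the start and 6 of them rose, beside 39 of 60 tested in the whole list. *rev3*, the catalytic subunit of DNA polymerase zeta, had the longest overlap of all pairs (4758 of 4786 nt). It had 0.0690 and 0.0720 tag/nt in WT against 0.148 and 0.148 tag/nt in the mutant-labelled libraries (log2 ratio 1.07 ± 0.14), while XUT0647 went from 0.0148 and 0.0134 to 0.179 and 0.192 tag/nt. After mRNA scaling its log2 ratio was -0.0054. *cdc18*, the MCM loader, rose by 1.25 ± 0.09, *cdt2*, a WD repeat protein of the replication licensing ubiquitin ligase, by 1.30 ± 0.09, *mcm6*, a subunit of the MCM helicase, by 1.05 ± 0.09, *msh6*, of mismatch repair, by 1.13 ± 0.08, and *rqh1*, the RecQ helicase, by 1.43 ± 0.13. *orc1*, of the origin recognition complex (0.53 ± 0.09), and *apn2*, an AP endonuclease (0.63 ± 0.13), did not pass the 2-fold limit. After mRNA scaling none of the 8 passed in either direction, and 4 then lay below 0, *orc1* (-0.55), *apn2* (-0.44), *mcm6* (-0.024) and *rev3*, as *msh6* did with TMM and median of ratios scaling. The XUT over *apn2* had 2 and 1 reads in WT against 20 and 21 in the mutant-labelled libraries, a ratio of 18.2 (exact 95% interval 5.79 to 91.7 for counting error).

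The transporter list held 6 such genes, 4 of which rose (27 of 47 in the whole list). *pmd1*, a leptomycin exporter, had 1.07 and 1.01, then 3.09 and 3.29 tag/nt, and *bsu1*, a vitamin B6 importer, 0.737 and 0.598, then 1.27 and 1.45 tag/nt. *ght6*, a hexose transporter, had 10 and 10 reads, then 27 and 34, and *isp5* is given above. After mRNA scaling *isp5* alone of these 4 was higher, and *bsu1* lay below 0. *ctr5*, of the copper transporter complex, had 5.37 and 9.03, then 7.79 and 9.10 tag/nt, overlapping between groups, while XUT0674 had 10 and 2 reads, then 95 and 112. *mfs3*, a spermidine family transporter, was level on the deposited scale (1.78, 1.55, 1.70 and 1.73 tag/nt) and lower after mRNA scaling (log2 ratio -1.03), under XUT1020, which went from 0.0616 and 0.0769 to 0.548 and 0.513 tag/nt.

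Of 5 meiosis and sporulation genes, 4 were tested and 2 rose, *isp3*, a spore wall protein (1.73 ± 0.12), and *rec25*, of meiotic recombination (1.99 ± 0.28), where 18 of 37 tested genes of the list rose and 1 fell. After mRNA scaling neither passed (0.66 and 0.92). Of 4 chromatin genes, *fft1*, a remodeller, rose on the deposited scale (1.08 ± 0.12, below 0 with TMM and median of ratios scaling), and *swi6*, the HP1 homolog (0.83 ± 0.10), *hst4*, a sirtuin (0.72 ± 0.11), and *snf22*, of SWI/SNF (0.37 ± 0.11), did not pass, beside 18 of 32 in the list. After mRNA scaling none of the 4 passed, and *swi6* (-0.24), *hst4* (-0.36) and *snf22* (-0.71) lay below 0. *pap1*, the oxidative stress transcription factor, was the only stress gene (9 of 18 in the list rose and 1 fell) and had 1.87 and 1.81, then 4.53 and 4.49 tag/nt (1.29 ± 0.06, and 0.22 with no call after mRNA scaling). In the RNA decay list, where 10 of 27 rose and 1 fell, *ski2*, the helicase of the Ski complex (0.93 ± 0.10), and *exo2* itself (0.46 ± 0.09) did not pass, and both lay below 0 after mRNA scaling (-0.15 and -0.62).

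*exo2* was a case of its own. XUT0549, antisense to 580 of the 4296 nt of the gene and 220 nt upstream, had 2 and 0 reads in WT against 1407 and 1471 in the mutant-labelled libraries, the highest XUT density of all 344 (2.06 and 2.11 tag/nt). The ratio was 1912 (exact 95% interval 529 to 15796 for counting error). Sense *exo2* reads were 2485, 2181, 2426 and 2382. The *kanMX4* cassette was placed at this locus in YAM2397, and the part of that construct in XUT0549 was not tested.

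The other most abundant XUTs lay over genes of lower density than the XUT itself. XUT1462 over *bgs2*, a spore wall glucan synthase, had 0.338 and 0.351, then 1.71 and 1.82 tag/nt, beside 0.0858 and 0.0860, then 0.201 and 0.210 tag/nt for the gene. XUT1520 over *ppk18*, a protein kinase, was already at 0.698 and 0.861 tag/nt in WT, the highest of all in that strain, and reached 1.62 and 1.63 tag/nt. The gene had 0.488 and 0.503, then 0.670 and 0.598 tag/nt. It did not reach 2-fold (log2 ratio 0.35 ± 0.09) and lay at -0.72 with no call after mRNA scaling. XUT0990 over *mug2* had 0.371 and 0.421, then 1.11 and 1.21 tag/nt, and XUT1236 over *pdp2*, a PWWP domain protein, 0.316 and 0.293, then 1.11 and 1.18 tag/nt. All of these were well above the median XUT in WT too, and *bgs2*, *mug2* and *pdp2* rose by 1.25, 1.61 and 1.13 on the deposited log2 scale. None of these 3 genes passed after mRNA scaling (0.18, 0.53 and 0.058), and *pdp2* lay below 0 with TMM and median of ratios scaling.

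None of the 4 genes with the longest overlaps fell past the threshold on either scale. Apart from *rev3*, the longest were with *psm3*, a cohesin subunit (3822 nt), *prp22*, a splicing helicase (3819 nt), and *mrc1*, the checkpoint adaptor claspin (3251 nt). Their log2 ratios were 1.38 ± 0.11, 0.76 ± 0.11 and 0.77 ± 0.11, so *psm3* rose and the other two did not reach 2-fold. After mRNA scaling *psm3* was at 0.30 with no call, and *prp22* and *mrc1* lay below 0 (-0.31 and -0.31, limma adjusted p = 0.047 each). *nmt1*, for thiamine synthesis, and *fbp1*, fructose-1,6-bisphosphatase, both spanned end to end and with promoters shown above, were chosen after their values were seen. *nmt1* had 10 and 12 sense reads in WT against 30 and 52 in the mutant-labelled libraries (log2 ratio 2.24 ± 0.41), and *fbp1* had 116 and 107, then 389 and 389 (2.21 ± 0.14), under XUTs at 0.128 and 0.129 (*nmt1*) and 0.0229 and 0.0288 tag/nt (*fbp1*) in WT. Both genes were higher after mRNA scaling as well.

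Within genes, coding exons under the XUT were compared with exons outside it in the 47 pairs that had both. The log2 ratio of covered exons was lower by a median of 0.18 (median difference -0.18, with -0.17 and -0.18 in the same-numbered pairs of libraries), and covered exons were above the others in 9 pairs. The covered exons are the 5′ ones. In these genes the first coding exon was 0.30 below the last (median difference -0.30), and in 1841 genes without antisense XUT the same difference was -0.20, with the first exon above the last in 14.7%.

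At the edge of the rule, XUT0977 over *zas1* passed the gene start by 1 nt, XUT0604 over *rrp36* and XUT0676 over *fyv7* by 2 nt. XUT0194 over *cdt1*, the replication licensing factor, and the XUTs over *ubp12* and SPAC630.07c fell short by 1 nt and are not among the 344. The sense log2 ratios of *zas1*, *rrp36* and *fyv7* were 0.46, 1.13 and 2.48, and those of *cdt1*, *ubp12* and SPAC630.07c were 1.15, 0.26 and 1.94.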

How the data were processed

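Deposited signal values were used for WT replicates 1 and 2 and for the libraries labelled *exo2*Δ, replicates 1 and 2. The authors depleted rRNA, sequenced stranded libraries (paired reads of 50 nt), mapped them to ASM294v2 with TopHat 2.0.6, and deposited a density in tag/nt scaled on sn(o)RNA; the tool that counted reads is not given in the sources used here, nor is the handling of overlapping features. XUTs came from segmentation of the pooled *exo2*Δ reads. Pooled columns were not used. Multiplying density by feature length and dividing by 1 step per library gave whole reads (tolerance 0.01) for 100% of values; no count test was run, since the deposited values are divided by length. Where *meu7*, *meu14*, *mug98*, *mug30*, *mug100*, *nmt1*, *fbp1* or genes lower without the ratio limit are named, they were chosen after their values were seen. Log2(density + 1.55e-04) of 8826 of 9139 features with at least 10 reads over the 4 libraries was fitted in limma 3.58.1 (R 4.3.3), with Benjamini-Hochberg adjustment over all; values after ± are standard errors. An exact permutation test of 2 against 2 cannot go below p = 0.333. The p-values and standard errors rest on the spread between 2 libraries a group. This spread was moderated in limma toward its trend with density over all features fitted. Gene names came from RefSeq by locus tag (5111 of 5129 genes). Intervals of read ratios are exact (conditional binomial, SciPy 1.17.1). Genes were named by a rule: the 8 largest rises, falls past the threshold (none), the 6 most abundant XUTs, the 6 highest antisense to sense ratios, the 4 longest overlaps, pairs the study names, and the gene lists. The members and lists were chosen with earlier results of these data known. The fit was tested on simulated data.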

Additional observations from a re-analysis of the deposited data

How the results depend on the processing

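Scaling decided most calls. The 198 genes that rose became 98 with scaling on total reads, 33 with TMM, 33 with the median of ratios and 39 with the median of mRNA ratios, and the 0 that fell became 4, 21, 23 and 18. The median log2 ratio of the sense genes was then 0.65, -0.028, -0.067 and 0.061, and that of the XUTs 1.52, 0.85, 0.81 and 0.94. Of 45 named genes tested, the log2 ratio changed sign in 6 with total reads, 19 with TMM, 19 with the median of ratios and 16 with the median of mRNA ratios. Under TMM, the median of ratios and the median of mRNA ratios, 12 of these genes each were called on neither scale, among them *orc1* (-0.64 under TMM), *apn2* (-0.53), *snf22* (-0.79), *ppk18* (-0.81) and *hst4* (-0.45). Of genes with a call on either scale, under TMM, the median of ratios and, where given, the median of mRNA ratios, *rev3* was at -0.10, -0.13 and -0.0054, *bsu1* at -0.14, -0.18 and -0.049, *mcm6* at -0.11, -0.15 and -0.024, *mfs3* at -1.12, -1.16 and -1.03, *msh6* at -0.032 and -0.071, *pdp2* at -0.032 and -0.070, and *fft1* at -0.085 and -0.12. The cause, the choice of reference RNA, is built into the setting. With no limit on the ratio 301 rose and 7 fell (89.1% and 2.07%, beside 88.1% and 4.31% of all mRNAs). A pseudocount of 10 times the smallest density gave a XUT median of 1.90. Leaving out 1 library each gave 186 to 207 rises, 0 to 1 falls (SPCC569.03, at -1.18 without WT replicate 1 and -1.03 without exo2 replicate 2), sense medians of 1.08 to 1.20 and XUT medians of 1.98 to 2.13. Calls were lost for *pal2* and *arp10* without exo2 replicate 1 (2.61 and 3.04), *bsu1* without WT replicate 2 (0.88) or exo2 replicate 2 (0.93), *mcm6* without WT replicate 2 (0.999) and *pdp2* without WT replicate 1 (0.996). With no read filter *mug27* (1.59) and SPBC28E12.02 (1.63) passed. With the replicate number as a block, 197 rose and none fell; same-numbered libraries deviated together at r = 0.00796 over all features and 0.247 over mRNAs, and with 2 pairs they share only a number. The filters on reads, the overlap minimum, the pairing with every covered gene and the covered start codon left the counts within 1.5 times. So did leaving out 28 XUTs that overlap a gene on their own strand, chosen after seeing the data, which gave 183 rises.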
